A study of Danio rerio with 6 samples.

Results

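MicroRNAs (miRNAs) of neuronal differentiation were measured in whole zebrafish embryos exposed to ethanol, with dre-miR-128 as the 1 member past the test's threshold in any comparison. The members were the array probes whose name contains dre-miR-124, dre-miR-128, dre-miR-132, dre-miR-137, dre-miR-138, dre-miR-7a, dre-miR-7b, dre-miR-129, dre-miR-218a or dre-miR-218b. They are 10 of the 243 probes named for zebrafish miRNAs, and each was printed in 4 spots per array. The rule uses probe names and no intensity, but the members were chosen with earlier results of these data known. Every member name matched exactly 1 probe. No member probe was named for zebrafish alone: the names also list the same miRNA in 1 to 14 other species entries, so the probes were not designed for this fish only.

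A miRNA is a short RNA that guides a silencing complex to partly matching messenger RNAs and lowers their translation and stability. In vertebrate nervous systems a set of miRNAs is switched on as progenitors leave the cell cycle and become neurons, and they hold down transcripts of the progenitor and non-neuronal state. The brain and spinal cord of a zebrafish embryo at this age contain many progenitors and the earliest born neurons, and most neurons arise later.

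The embryos came from group spawnings of adult fish whose strain the labels do not name. About 200 embryos per dish, selected for normal development, were kept in system water with no ethanol, in 1% ethanol or in 1.5% ethanol from 4 to 24 h after fertilisation (hpf) and collected at 24 hpf. Each of the 3 groups had 2 arrays from 2 biological replicates, hybridised with 2 µg of Cy3-labelled total RNA in a single colour. A whole embryo was measured, so fewer cells of a type and less of the miRNA per cell cannot be told apart, and dishes pooled many embryos.

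Each array held 5040 spots. Values below are log2 of the background-corrected, quantile-normalised intensity, averaged over the kept spots of a probe, unless raw intensity is named. A probe is described as detected on an array where at least 50% of its kept spots exceeded the 95th percentile of that array's empty and blank spots. By this measure 28 of the 243 zebrafish probes were detected on all 6 arrays and 159 on none, and single arrays detected 14.4% to 23.0% of them. Correlations between arrays across zebrafish probes ran from 0.865 to 0.961. The 6 arrays were assigned to 3 slides by the experiment names in the scanner headers. Arrays with the same name were assumed to share a slide. Slide 1 held control replicate 1 and 1% ethanol replicate 1, slide 2 held control replicate 2 and 1.5% ethanol replicate 1, and slide 3 held the second replicate of each ethanol dose.

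Most members gave little or no signal in these embryos. Of the 10 members, 2 were detected on all 6 arrays, dre-miR-132 and dre-miR-218a. dre-miR-128 was detected on 3 arrays, dre-miR-124 and dre-miR-129 were detected on 1 array each, and dre-miR-137, dre-miR-138, dre-miR-7a, dre-miR-7b and dre-miR-218b were detected on none. On single arrays the number of detected members was 4 and 3 in control, 2 and 2 in 1% ethanol, and 4 and 2 in 1.5% ethanol. Beside these, 20.2% and 17.3% of all zebrafish probes were detected in control, 14.4% and 18.5% in 1% ethanol, and 23.0% and 20.2% in 1.5% ethanol. The members gave 240 spot readings over the arrays, of which 225 were kept, 15 carried the ignore mark of the quantification software and 12 were saturated. All 12 saturated readings belonged to dre-miR-218a.

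**Figure D1:**
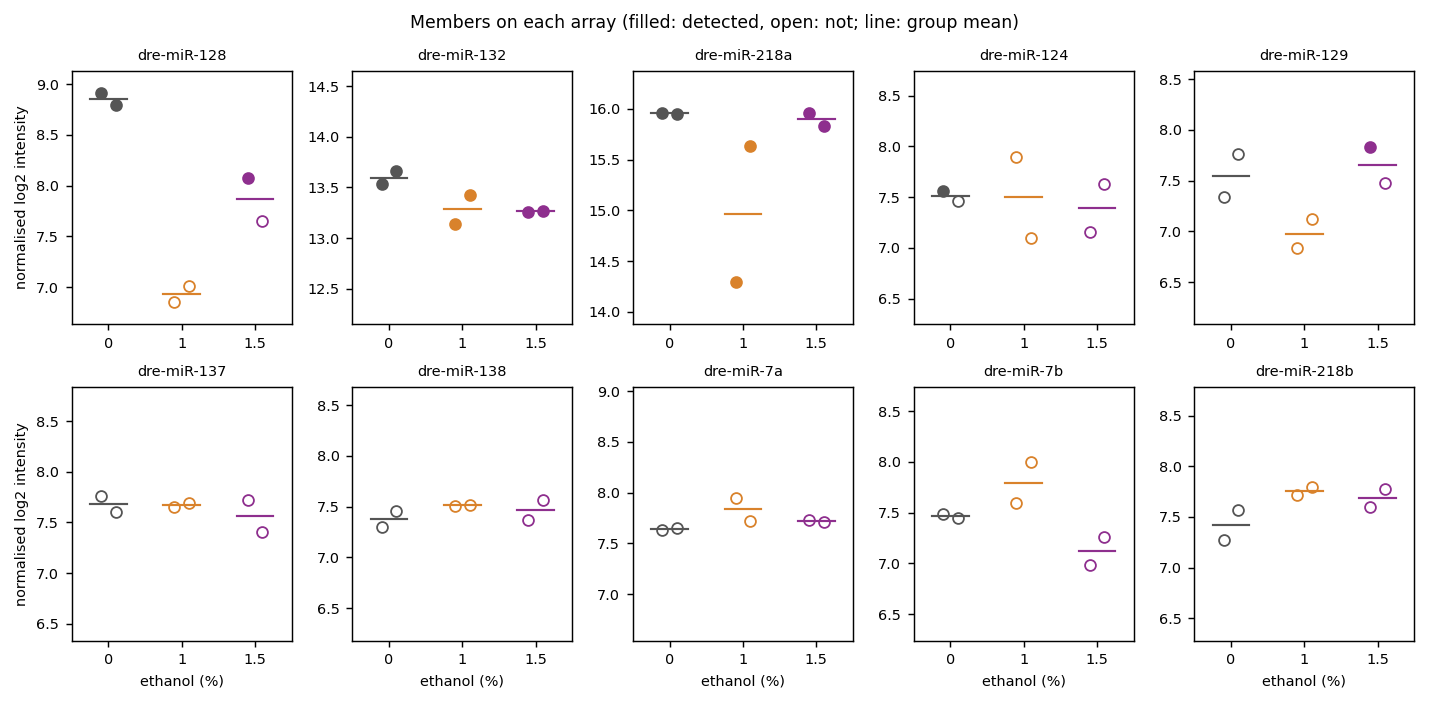
Normalised log2 intensity of the 10 members on each array, by ethanol concentration in percent, with a line at the mean of the 2 arrays; filled points are detected and open points are not. dre-miR-128 is the only member with filled points in both control arrays and open points in both 1% ethanol arrays, and 5 members have open points throughout.

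dre-miR-128 fell in embryos raised in 1% ethanol. In mammals miR-128 is enriched in the brain, where it has been linked to neuronal migration and excitability. Its level was 6.85 and 7.01 on the 1% ethanol arrays, against 8.92 and 8.79 on the control arrays. Both 1% arrays lay below both control arrays, and the gap between groups was larger than the spread within either group. The mean was 6.93 ± 0.11 in 1% ethanol and 8.85 ± 0.09 in control (SD, n = 2 each). The log2 fold change was -1.93 (SE 0.20, 95% interval -2.41 to -1.44) with a limma adjusted p of 0.0152, the smallest p of the 243 probes. It was the 1 member of 10 past the threshold of 0.05, and 0.412% of all zebrafish probes were past it, which is dre-miR-128 alone.

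The size of that fall is uncertain, because this probe was detected on neither 1% ethanol array. The dim mean was therefore taken, on each array, as no lower than the lowest level among probes detected there. That gave a mean of 7.87 in 1% ethanol against 8.85 in control, so dre-miR-128 was 1.98-fold lower with this floor. The limma adjusted p of 0.0152 belongs to the measured log2 fold change of -1.93 and not to this value. Such a floor is no strict limit: the other-species probe cel-miR-124 was at 8.46 on 1% ethanol replicate 1 and was not detected there. The measured mean in 1% ethanol, without this floor, was 6.93. On slide 1, which holds an array of each group, the difference between 1% ethanol and control was -2.07 on the log2 scale. The call ended without control replicate 1 (-1.82, limma adjusted p = 0.341), without control replicate 2 (-2.01, 0.188) or without 1% ethanol replicate 1 (-1.86, 0.0750). The value was below 0 in all 27 alternative analyses, from -3.23 to -1.59, and past the threshold in 18 of them. All reuse these arrays or some of them, so the constant sign is no independent support. The 18 include the fit with slide as a block, whose p does not measure how dre-miR-128 itself varied.

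The single spots of dre-miR-128 show the same separation. Raw foreground intensities were 92, 104, 156 and 105 on 1% ethanol replicate 1 and 102, 115, 115 and 156 on 1% ethanol replicate 2. In control they were 559, 690, 628 and 578 on replicate 1 and 362, 376, 414 and 383 on replicate 2. No raw spot of a 1% ethanol array reached any raw spot of a control array. The control signal itself was modest: the median spot was 1.34 and 1.37 times the 95th percentile of empty and blank spots on the control arrays, against 0.298 and 0.343 times on the 1% ethanol arrays.

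At 1.5% ethanol dre-miR-128 was between the other groups and did not pass the test against either. It was at 8.07 and 7.65 on the 1.5% ethanol arrays, detected on replicate 1 only. Both values lay below the control values of 8.92 and 8.79 and above the 1% values, so no groups overlapped. The mean of 7.86 ± 0.30 in 1.5% ethanol against 8.85 ± 0.09 in control (SD, n = 2 each) gave a log2 fold change of -0.99 (SE 0.20, 95% interval -1.48 to -0.50, limma adjusted p = 0.380). This was the smallest p of that comparison, in which 0% of probes were past the threshold. Against 1% ethanol the difference was 0.94 (95% interval 0.45 to 1.42, limma adjusted p = 0.291), and no fold is given since the 1.5% mean did not exceed the floor of 7.87.

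The spots at 1.5% ethanol disagreed with one another. Raw intensities on replicate 1 were 241 and 97 in the upper print block and 551 and 527 in the lower one, a 5.68-fold range within the probe. On replicate 2 they were 154, 167, 277 and 179. The SD of the log2 raw spots was 1.18 and 0.38 on the 1.5% ethanol arrays, 0.33 and 0.26 on the 1% arrays, and 0.14 and 0.08 on the control arrays. On slide 2 the difference between 1.5% ethanol and control was -0.71, and on slide 3 the difference between 1.5% and 1% ethanol was 0.65. In the authors' deposited log2 table, which scales each array to its Ncode_Control spots, dre-miR-128 was at 1.22 and 0.57 in 1.5% ethanol against 1.59 and 0.96 in control, so those groups overlapped there. In the same table its 1% values of -0.37 and -0.25 lay below both control values.

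**Figure D2:**
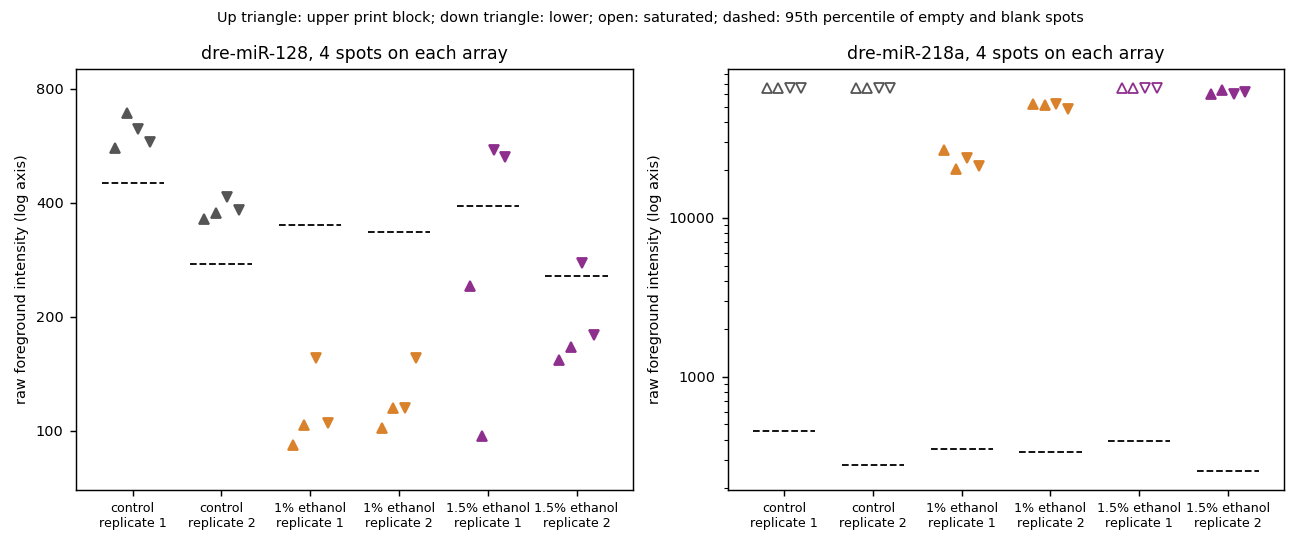
Raw foreground intensity (log axis) of the 4 spots of dre-miR-128 (left) and dre-miR-218a (right) on each array; triangles point up for the upper print blocks and down for the lower ones, open triangles are saturated, and dashed lines mark the 95th percentile of empty and blank spots. All dre-miR-128 spots in 1% ethanol, 92 to 156, lie under the dashed line, and all dre-miR-218a spots of control are saturated.

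dre-miR-218a was bright on every array and its control level could not be measured. In mouse and chick embryos miR-218 marks motor neurons, and its precursors lie within genes of the Slit family of axon guidance proteins. All 4 spots were saturated on both control arrays, at 65290 to 65295 raw units, and on 1.5% ethanol replicate 1. The spots read 20161 to 26618 on 1% ethanol replicate 1, 48456 to 52292 on 1% ethanol replicate 2 and 59829 to 63531 on 1.5% ethanol replicate 2. Thus both 1% ethanol arrays lay under saturation, and they differed from each other, while saturation leaves the spread within control and within 1.5% ethanol unknown.

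On the normalised scale dre-miR-218a was at 14.29 and 15.63 in 1% ethanol, against 15.96 and 15.95 in control. The log2 fold change was -1.00 (SE 0.41, 95% interval -2.00 to 0.01) and did not pass the test (limma adjusted p = 0.755). The SD of the 2 arrays was 0.95 in 1% ethanol, against 0.008 in control and 0.09 in 1.5% ethanol. This SE, interval and p rest partly on saturated arrays, so they do not measure how dre-miR-218a varied. The same holds for its other comparisons below. With this normalisation the measured means of 14.96 in 1% ethanol and 15.96 in control differ by 1.99-fold. Saturation of the control spots can make that gap too small, but it is no minimum, since it did not hold across arrays or normalisations. The difference rests on which 1% ethanol array is used: the log2 fold change was -0.28 without 1% ethanol replicate 1 and -1.64 without 1% ethanol replicate 2. In the authors' deposited table dre-miR-218a was at 7.20 and 8.47 in 1% ethanol, against 8.33 and 8.38 in control. Those groups overlapped there. With quantile normalisation over the zebrafish spots alone the log2 fold change was -0.0038. That value could not show a difference. dre-miR-218a had the highest mean of the zebrafish probes in every group, and this normalisation gives the brightest spots the same values on every array. On slide 1 the difference with the reported normalisation was -1.67. At 1.5% ethanol the level was 15.96 and 15.83, against 15.96 and 15.95 in control. The log2 fold change was -0.06 (limma adjusted p = 0.977), but no fold or direction is given, since control and 1 of the 2 arrays at 1.5% ethanol were saturated. Between the doses, 1.5% minus 1% ethanol was 0.94 (limma adjusted p = 0.633). It was 0.25 without 1% ethanol replicate 1 and 1.59 without 1% ethanol replicate 2. With quantile normalisation over the zebrafish spots alone it was -0.0039, a value that again could not show a difference.

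dre-miR-132 was the member best suited to a comparison, bright on all arrays and saturated on none. In mammals miR-132 is induced by neuronal activity through the factor CREB and promotes growth of neurites. It was at 13.15 and 13.42 in 1% ethanol and 13.26 and 13.27 in 1.5% ethanol, against 13.54 and 13.66 in control. All 4 ethanol arrays lay below both control arrays, by little. The log2 fold change was -0.31 (SE 0.17, 95% interval -0.73 to 0.11, limma adjusted p = 0.875) in 1% ethanol and -0.33 (SE 0.17, 95% interval -0.75 to 0.09, limma adjusted p = 0.965) in 1.5% ethanol, both against the same 2 control arrays. Neither passed, and the doses differed from each other by -0.02 (limma adjusted p = 0.973), a sign that turned in 10 of 27 alternative analyses.

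The raw spots of dre-miR-132 read 8009 to 8691 and 9519 to 11558 on the 1% ethanol arrays, 8575 to 9948 and 11531 to 12221 on the 1.5% ethanol arrays, and 13468 to 15182 and 12002 to 13388 on the control arrays. The SD of its log2 raw spots was 0.04 to 0.13 over the arrays, so its spots agreed closely. On slide 1 the difference between 1% ethanol and control was -0.39, and on slide 2 that between 1.5% ethanol and control was -0.40. The direction at 1.5% ethanol depended on the scaling. In the authors' deposited table the mean was 6.13 in 1.5% ethanol against 6.09 in control, and 5.98 in 1% ethanol against 6.09 in control.

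dre-miR-124, among the most abundant miRNAs of the adult vertebrate brain and a promoter of neuronal identity, gave a signal close to background with this probe. It was at 7.90 and 7.09 in 1% ethanol and 7.16 and 7.63 in 1.5% ethanol, against 7.56 and 7.46 in control. The groups overlapped in every comparison, with log2 differences of -0.01, -0.12 and -0.10 for 1% against control, 1.5% against control and 1.5% against 1% ethanol. The only array with detection was control replicate 1, where 2 spots were kept and read 483 and 137. Elsewhere 1 kept spot exceeded the 95th percentile of empty and blank spots on each of a pair of arrays, at 692 beside 141 and 130 on 1% ethanol replicate 1 and at 273 beside 143 and 171 on 1.5% ethanol replicate 2. The fourth spot of this probe carried the ignore mark on all 6 arrays, with raw readings of 289 to 2342.

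dre-miR-129, whose mammalian counterpart acts on potassium channel transcripts in neurons, was detected only on 1.5% ethanol replicate 1. It was at 6.84 and 7.12 in 1% ethanol and 7.83 and 7.48 in 1.5% ethanol, against 7.34 and 7.76 in control. Both 1% ethanol arrays lay below both control arrays, while the 1.5% ethanol values overlapped the control values. The log2 difference between 1% ethanol and control was -0.57 (SE 0.23, limma adjusted p = 0.755). No fold is given because dre-miR-129 was detected on no array of either group. The difference between 1.5% and 1% ethanol was 0.68 (limma adjusted p = 0.509). On 1.5% ethanol replicate 1 the kept spots read 514, 453 and 118, a 4.36-fold range.

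The other 5 members were not detected on any array. This does not make them equal to the empty spots. The median raw spot was 187.5 to 236.5 for dre-miR-7a and 168 to 189 for dre-miR-138. The median of the empty and blank spots was 98 to 127 over the arrays. These 5 members are dre-miR-137, which in mice limits proliferation of neural stem cells, and dre-miR-138, which in rat neurons limits the size of dendritic spines. The others are dre-miR-7a and dre-miR-7b, forms of a miRNA found in neurons and hormone-secreting cells, and dre-miR-218b, a second form of miR-218. Array values of the 5 ran from 6.98 to 7.99, and their kept raw spots from 118 to 671. Log2 differences between groups ran from -0.67 to 0.34 over the 3 comparisons, with limma adjusted p of 0.489 or more, and no fold is given. The lowest p of these 5 belonged to dre-miR-7b, at 6.98 and 7.26 in 1.5% ethanol against 7.59 and 7.99 in 1% ethanol. For dre-miR-137 and dre-miR-138 all array values lay within 0.35 and 0.27 log2 units. A difference in these 5 miRNAs was not detectable with the signal of these member probes, which is not the same as no difference.

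Agreement between the spots of a probe differed among the members. The SD of log2 raw spots over the arrays was 0.01 to 0.17 for dre-miR-7a and 0.03 to 0.08 for dre-miR-138. Neither was detected on any array. This SD was 0.16 to 1.36 for dre-miR-124, 0.11 to 1.13 for dre-miR-7b, 0.07 to 1.18 for dre-miR-129 and 0.08 to 1.18 for dre-miR-128. The widest values came from arrays on which 1 or 2 kept spots were several times brighter or dimmer than the rest, as in the dre-miR-7b spots of control replicate 1, which read 671, 266, 126 and 132. The median spot SD of the members on an array was 0.08 to 0.23, against 0.17 to 0.32 for all zebrafish probes. These member medians include dre-miR-218a. Its spot SD was 1.1e-05 to 1.3e-05 on its saturated arrays, where clipping hides the spread.

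Counted over all 10 members, the comparison of 1% ethanol with control had 1 lower and 0 higher past the threshold, and 2 members with an unadjusted limma p under 0.05 beside 6.17% of all probes. In 4 members both 1% ethanol arrays lay below both controls, beside 16.9% of all probes, and in 4 members both lay above, beside 20.6%. The 4 lower ones were dre-miR-128, dre-miR-132, dre-miR-129 and dre-miR-218a, of which dre-miR-129 was detected on no array of either group. The 4 higher ones, dre-miR-138, dre-miR-7a, dre-miR-7b and dre-miR-218b, were not detected on any array. The median log2 fold change was -0.01 for the members and 0.00 for all 243 probes.

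In 1.5% ethanol against control, 0 members passed the adjusted threshold and 1 had an unadjusted limma p under 0.05, beside 4.94% of all probes. Both 1.5% ethanol arrays lay below both controls in 3 members, dre-miR-128, dre-miR-132 and dre-miR-7b, beside 17.7% of all probes. They lay above in 2 members, beside 11.5%. The median log2 fold change was -0.09 for the members and 0.01 for all probes. This comparison shares its control arrays with the comparison at 1% ethanol, so the 2 sets of values are not independent.

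The log2 difference between 1.5% and 1% ethanol is taken without the control means. Its SE and p do use the control arrays, since the 3 groups share 1 estimate of the spread. There, 0 members passed the adjusted threshold, as did 0% of all probes. An unadjusted limma p under 0.05 was found for 3 members, dre-miR-128, dre-miR-129 and dre-miR-7b, beside 7.41% of all probes. Both 1.5% arrays lay above both 1% arrays in 3 members, beside 15.2% of all probes, and below in 1 member, beside 16.5%. The median was -0.06 for the members and -0.04 for all probes.

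**Figure D3:**
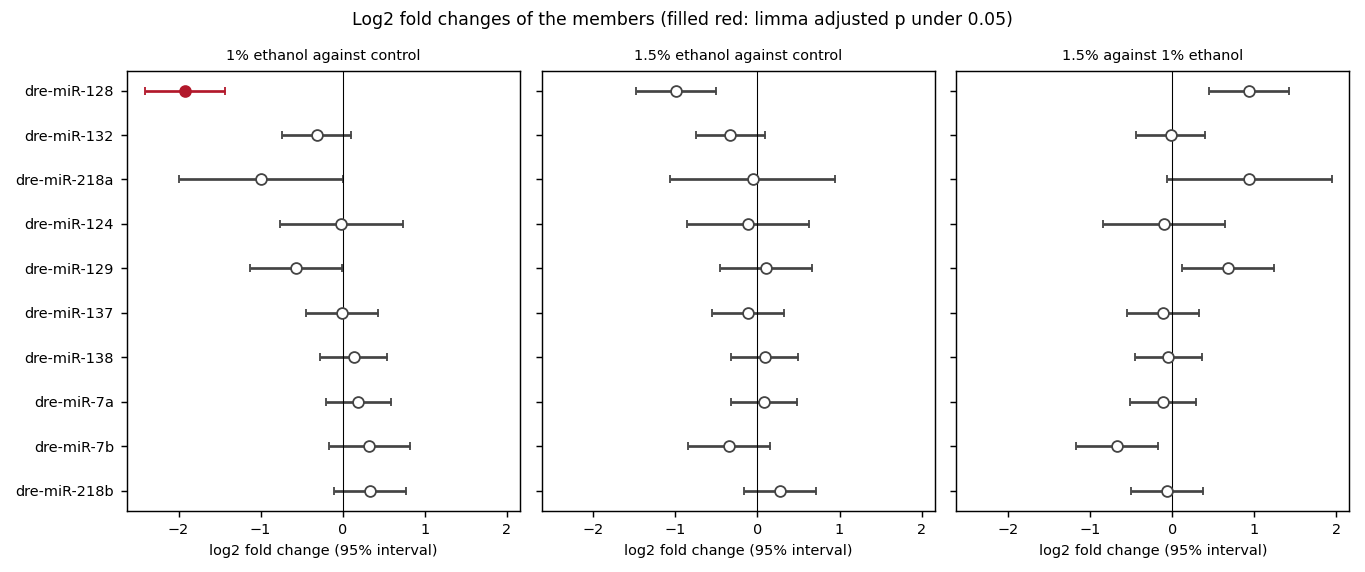
Log2 fold change of each member with its 95% interval from limma in the 3 comparisons; filled red marks an adjusted p under 0.05. dre-miR-128 in 1% ethanol against control, at -1.93, is the only filled point, and the intervals of dre-miR-218a are the widest. Its 2 arrays of 1% ethanol differed most. Its spots were saturated on both control arrays and on 1.5% ethanol replicate 1, so its intervals do not measure how it varied.

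The array also carries probes named for the same miRNAs in other species and not for zebrafish, and these gave a second reading of several members without a test. Of 10 such probes, 2 were detected on all 6 arrays, 4 on at least 1 array and 6 on none. For miR-128 the second probe, mmu-miR-128b, named for the other mammalian miR-128 form, was detected on no array. It was at 6.79 and 6.68 in 1% ethanol and 6.97 and 6.62 in 1.5% ethanol, against 6.69 and 7.32 in control. This probe does not repeat the fall of dre-miR-128, but it was not detected in any group.

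Probes of a single miRNA disagreed most for miR-218 and miR-129. dre-miR-218a was saturated in control, while dre-miR-218b and hsa-miR-218 were detected on no array. The hsa-miR-129 probe was bright on every array: it was at 13.73 and 14.26 in 1% ethanol and 14.42 and 14.05 in 1.5% ethanol, against 14.28 and 14.21 in control, and both ethanol groups overlapped the control values. Its means differed by -0.25 between 1% ethanol and control. The cause of these disagreements between probes of the same miRNA was not tested, and no sequence of either probe was used.

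For miR-7 the hsa-miR-7 probe was detected on all 6 arrays, at 9.38 and 9.60 in 1% ethanol and 9.27 and 9.42 in 1.5% ethanol, against 9.36 and 9.50 in control. The groups differed by -0.14 to 0.06 log2 units in this probe, and the rno-miR-7 probe was detected on no array. mmu-miR-137 was detected on 5 arrays, at 8.60 and 8.55 in 1% ethanol and 8.36 and 8.65 in 1.5% ethanol, against 8.77 and 8.74 in control. All 4 ethanol arrays lay below both controls in that probe, with mean differences of -0.18 in 1% ethanol and -0.25 in 1.5% ethanol. Among all zebrafish probes, both arrays lay below both controls in 16.9% at 1% ethanol and 17.7% at 1.5% ethanol. The median spot of mmu-miR-137 was only 0.91 to 1.47 times the 95th percentile of empty and blank spots. This probe was not tested, and dre-miR-137 itself overlapped between groups. cel-miR-124 was detected on 4 arrays, at 8.46 and 8.78 in 1% ethanol and 8.14 and 8.78 in 1.5% ethanol, against 8.61 and 8.50 in control. hsa-miR-124a, mmu-miR-124a and mmu-miR-138 were detected on none. The 3 probes for the opposite strand of a member's precursor, dre-miR-132*, rno-miR-7* and dre-miR-129* (also named mmu-miR-129-3p), were detected on no array. Unlike the other-species probes, dre-miR-132* and dre-miR-129* are among the 243 tested zebrafish probes, and neither passed the threshold.

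**Figure D4:**
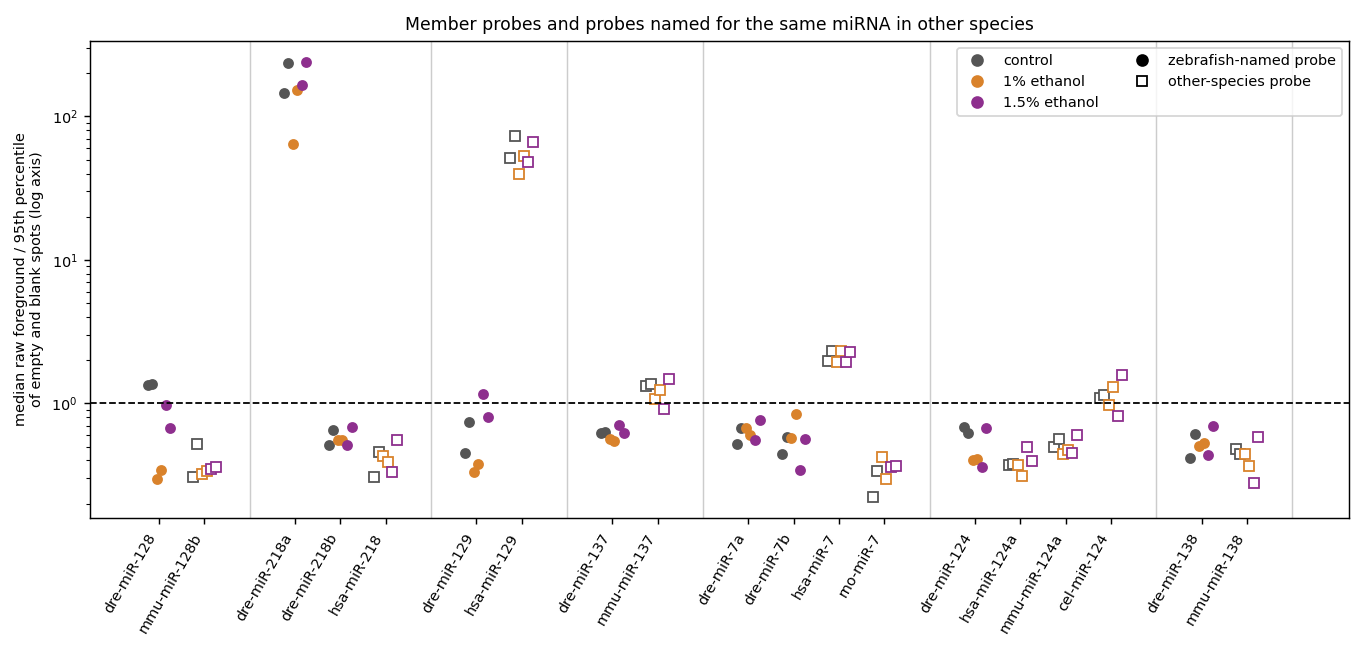
Median raw foreground of a probe divided by the 95th percentile of that array's empty and blank spots (log axis), for members (filled circles) and probes named for the same miRNA in other species (open squares), coloured by ethanol concentration. hsa-miR-129 and dre-miR-218a stand far over the dashed line at 1, while dre-miR-129, dre-miR-218b and hsa-miR-218 lie near or under it; heights of different probes are not amounts of miRNA relative to each other.

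Other miRNAs of the nervous system were read for context from a list of 17 names, which matched 15 different probes. dre-miR-181b and dre-miR-181c share 1 of these probes. Of these 15, 5 were detected on at least 1 array and 3 on all 6, and 0 passed the limma threshold in any comparison (lowest adjusted p = 0.587). Their median log2 fold change was 0.13 in 1% ethanol against control, 0.00 in 1.5% ethanol against control and -0.14 between 1.5% and 1% ethanol. dre-miR-9, which acts in neural progenitors and sets the timing of neurogenesis, was at 13.41 ± 0.09 in 1% ethanol and 13.12 ± 0.16 in 1.5% ethanol, against 13.20 ± 0.11 in control (SD, n = 2 each). Both 1% ethanol arrays of dre-miR-9 lay above both controls, beside 20.6% of all probes. Its log2 fold change of 0.205 did not pass the test (limma adjusted p = 0.875).

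The next 3 of that list by mean level were dre-miR-92b, dre-miR-153c and dre-miR-153a. dre-miR-92b, a relative of the miR-17-92 clusters seen in neural progenitors of mammals, was at 11.11 ± 0.50 in 1% ethanol and 10.79 ± 0.26 in 1.5% ethanol, against 11.19 ± 0.02 in control. dre-miR-153c was at 9.73 ± 0.16 in 1% ethanol and 9.57 ± 0.15 in 1.5% ethanol, against 9.65 ± 0.13 in control. dre-miR-153a, from a family that acts on the synaptic protein gene snap25 in zebrafish, was at 9.74 ± 0.36 in 1% ethanol and 9.57 ± 0.81 in 1.5% ethanol, against 8.90 ± 1.09 in control (SD, n = 2 each). None of the 3 passed in any comparison. Raw spots of dre-miR-92b disagreed on 1% ethanol replicate 2, from 357 to 2874, and on 1.5% ethanol replicate 1, from 270 to 3336. dre-miR-153a was not detected on control replicate 2, where it was at 8.13.

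Markers of other tissues were read for the same arrays. The muscle miRNA dre-miR-1 was detected on all 6 arrays, at 9.30 in 1% ethanol and 8.98 in 1.5% ethanol against 9.01 in control. The skin miRNA dre-miR-203a was at 13.82 and 11.05 in 1% ethanol and 14.03 and 14.22 in 1.5% ethanol, against 14.43 and 13.38 in control, with 1% ethanol replicate 2 below the other arrays. The spots of dre-miR-203a on that array disagreed, from 303 to 14411 raw units, against 9129 to 26639 over the other arrays. Of 5 muscle, 3 skin, 5 blood, 2 endothelial and 1 liver probes, 3, 1, 1, 0 and 0 were detected on at least 1 array, and 0 passed the limma threshold in any comparison. In 1% ethanol against control, log2 fold changes ran from -0.22 to 0.35 over the 5 muscle probes, 2 of them below 0. Over the 3 skin probes they ran from -1.48 to 0.002, with 2 below 0. In 1.5% ethanol against control they ran from -0.17 to 0.18 for muscle, with 2 below 0. For skin they ran from -0.32 to 0.37, with 1 below 0. The part of these tissue markers in the values of dre-miR-128 was not tested.

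Among the 79 zebrafish probes outside the members that were detected on at least 1 array, the 3 whose 6 array values were most like those of dre-miR-128 were dre-let-7c, dre-miR-193b and dre-miR-430b. Their Pearson r with dre-miR-128 over the 6 arrays was 0.866, 0.782 and 0.739, given as a description, since the arrays share their groups. dre-let-7c, of the let-7 family of late-rising miRNAs, was at 6.73 and 7.18 in 1% ethanol and 9.00 and 7.87 in 1.5% ethanol, against 8.46 and 8.79 in control. dre-miR-193b was at 8.39 and 11.24 in 1% ethanol and 13.78 and 13.34 in 1.5% ethanol, against 13.96 and 12.92 in control. Neither passed the test in 1% ethanol (log2 fold changes of -1.67 and -3.62, limma adjusted p = 0.498 for both). dre-let-7c was detected on neither 1% ethanol array, and its raw control spots ran from 208 to 877 and from 106 to 706. dre-miR-193b was not detected on 1% ethanol replicate 1, and its 2 kept spots on 1% ethanol replicate 2 read 831 and 8428. dre-miR-430b, of the family that clears maternal messenger RNA in the early zebrafish embryo, differed by -0.25 (limma adjusted p = 0.875).

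**Figure D5:**
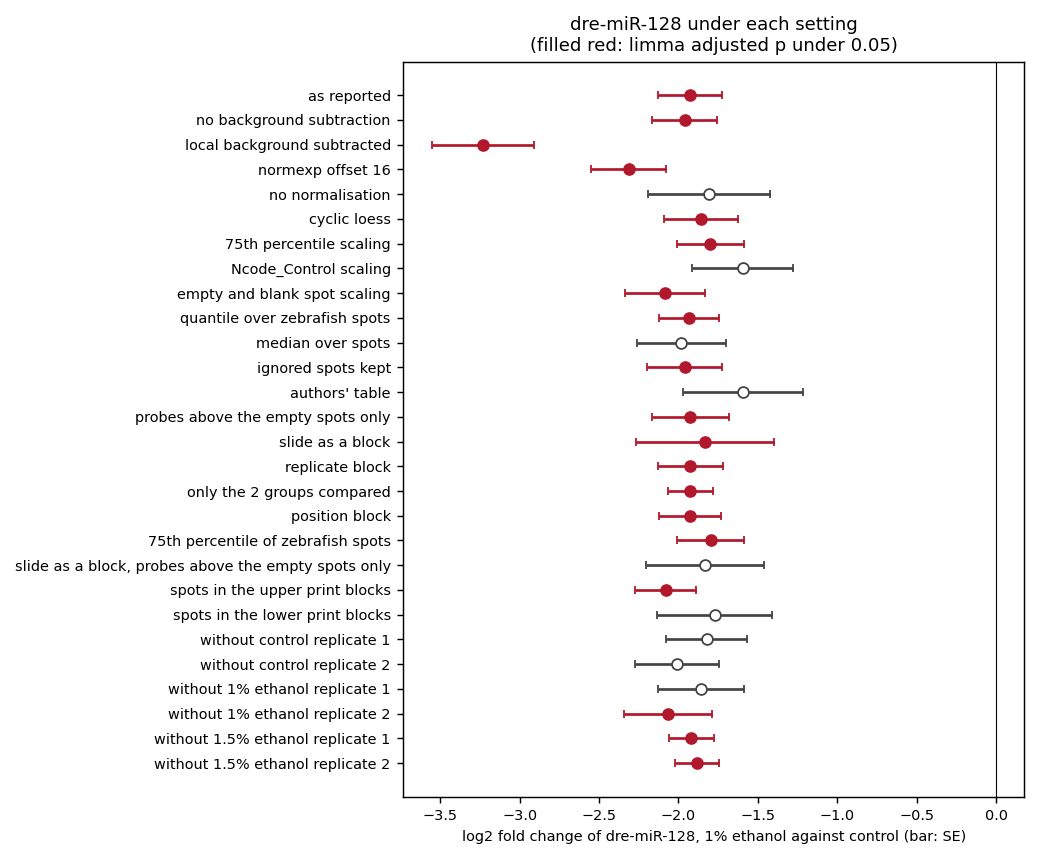
Log2 fold change of dre-miR-128 in 1% ethanol against control with its SE, as reported (top) and in each of the 27 alternative analyses; filled red points have a limma adjusted p under 0.05 and open points do not. Every point lies below 0, between -3.23 and -1.59, and 9 of the 27 alternatives are open.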

How the data were processed

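The members and lists were chosen with earlier results of these data known. The deposited scanner files hold raw foreground and local background intensity per spot, quantified without background subtraction, per the file headers, with a 0 or 1 ignore score from the software. The deposited log2 table was rebuilt by subtracting the Ncode_Control mean from a probe's mean log2 foreground, with raw readings under 100 left out: 1438 of 1440 values matched within 0.001. How the authors made it is otherwise not given in the sources used here. Here, intensities were normexp corrected (offset 50), set on the log2 scale without ignored spots (4.64% to 11.7% per array), quantile normalised over miRNA spots and averaged per probe (R 4.3.3). All 243 zebrafish probes entered 1 limma 3.58.1 model with the 3 groups (3 residual and 3.15 prior degrees of freedom). P-values were two-sided and Benjamini-Hochberg adjusted over 243 probes, threshold 0.05. The model was tested on simulated data. Saturation was set at 65000. An exact test of 2 arrays against 2 cannot go under p = 0.333, and the number of arrays limits precision (median SE 0.21). Named miRNAs were all members, their other-species probes, the 4 brightest of the nervous-system list and the 3 probes most like dre-miR-128. Also named were dre-miR-1 and dre-miR-203a, the only listed tissue markers detected on all 6 arrays. Alternatives changed background, normalisation, spot summary, filter, slide, replicate and arrays. No coordinates or sequences were used.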

Additional observations from a re-analysis of the deposited data

How the results depend on the processing

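The count of members past the threshold in 1% ethanol against control was 1, dre-miR-128, and became 0 without normalisation (log2 fold change -1.81, limma adjusted p = 0.0531), with Ncode_Control scaling (-1.60, 0.0957), with the median over spots (-1.98, 0.174) and in the authors' deposited table (-1.59, 0.0866). Among alternatives chosen after seeing the data it became 0 with the spots of the lower print blocks (-1.77, 0.508) and with slide as a block among probes above the empty spots only (-1.83, 0.463). It stayed at 1 with the spots of the upper print blocks (-2.08, 0.0156). Leaving out each array in turn, the count ran from 0 to 2 in 1% ethanol against control, from 0 to 1 in 1.5% against 1% ethanol, and was 0 throughout in 1.5% ethanol against control. The highest count in 1% ethanol against control came without 1% ethanol replicate 2 and added dre-miR-218a (log2 fold change -1.64). Its spread was then estimated only from control, with all spots saturated, and from 1.5% ethanol, saturated on replicate 1. A p from such clipped values does not measure how dre-miR-218a varied. The change in 1.5% against 1% ethanol was dre-miR-218a too, without the same array (log2 difference 1.59), and has the same limit. The lone array left in a group was assumed to vary like the others. The cause of these changes was not tested. With slide as a block the call stood (-1.83, 0.00276), but with 1 residual degree of freedom all 243 probes had the same SE of 0.43, so that p does not measure how dre-miR-128 itself varied; 3 zebrafish probes were called there against 1 as reported. With the replicate block dre-miR-128 was at -1.93 (0.0266) and no count changed. Deviations of same-numbered arrays correlated at r = -0.03 between control and 1% ethanol and 0.27 between control and 1.5% ethanol. Between the ethanol doses r was -0.04. The labels do not say whether same-numbered arrays share a spawning, and these values cannot settle it. The median of all probes lay farthest from 0 with Ncode_Control scaling in 1.5% ethanol against control, at 0.43, against 0.01 as reported. Members not past the threshold changed sign in up to 10 alternatives. Signal over background limits all members but dre-miR-132 and dre-miR-218a, and saturation limits dre-miR-218a.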
